A study of Caenorhabditis elegans with 4 samples.

Results

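The regions described here are the DVE-1 binding sites of chromosome II in Caenorhabditis elegans. They are all 589 intervals that the authors' combined peak list places on that chromosome, of 3702 in the whole list, and no measured value was used to choose them. All libraries came from L4 hermaphrodites of strain OP398, kept at 20 °C. These worms carried the mutation unc-119(ed3) on chromosome III and the transgene wgIs398, brought in by bombardment, in which dve-1::TY1EGFPFLAG C adds a DVE-1 with a GFP and 3xFlag tag and unc-119(+) restores unc-119. The genotype lists no change to the native dve-1 gene, and the copy number of the transgene is not given. Chromatin immunoprecipitation and sequencing (ChIP-seq) with antibodies against GFP gave 2 ChIP libraries, and DNA kept before precipitation gave 2 input libraries of the same strain and stage. The authors deposited 3 peak lists, the combined list and a list for each ChIP replicate. Separate cultures for the replicates are not stated, so the spread between them may be technical, and the depth of each library is unknown. The input libraries have no list here, so no background level is given beside the peaks.

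The homeodomain protein DVE-1 is known as a regulator of the mitochondrial unfolded protein response, in which it gathers in the nucleus and binds chromatin when mitochondria are stressed. Worm autosomes are commonly divided into a centre, rich in conserved and widely expressed genes, and 2 arms, which recombine more and hold more repeats and young gene families. All positions are in WormBase WS180, 1-based. A peak is an interval with a q-value from the authors' caller, and a lower q-value is called stronger here. The q-value grows smaller with depth and with width, so where several lists give one for the same site, no change is read from them. The sequence and the genes of WS180 were not used here, so sites are named by position only.

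The sites of chromosome II were spread very unevenly, with few on the left and many from the middle to the right end. By peak midpoint, the central 50% of the chromosome held 362 sites (47.4 per Mb), the right 25% held 164 (42.97 per Mb) and the left 25% held 63 (16.5 per Mb). The left part ended at base 3816692 and the right part began at base 11450077. The right end thus held 2.60 times as many sites per Mb as the left end (exact 95% interval 1.94 to 3.54; exact two-sided binomial p = 1.48e-11). Here and below, an interval or test over peaks takes in counting error alone and ignores that neighbouring peaks are related.

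The same order was present in each replicate list. Replicate 1 had 74 peaks in the right end and 20 in the left end (ratio 3.70, interval 2.23 to 6.40; exact binomial p = 1.85e-08). Replicate 2 had 104 in the right end and 38 in the left end (ratio 2.74, interval 1.87 to 4.08; exact binomial p = 2.78e-08). Both libraries therefore showed a sparse left end, at 5.24 peaks per Mb in replicate 1 and 9.96 in replicate 2.

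The centre as a whole was denser than both ends together, but this rested on the left end. Centre and ends differed by a ratio of 1.59 (interval 1.35 to 1.89; exact two-sided binomial p = 2.94e-08), from 362 against 227 sites over equal lengths. Set against the left end alone, the centre had 2.87 times the density (interval 2.19 to 3.82; exact binomial p = 6.42e-18). Set against the right end alone, the ratio was 1.10 with an interval from 0.915 to 1.34 (exact binomial p = 0.309). That ratio became 1.25 when the chromosome was divided into 3 equal parts (interval 1.04 to 1.51; exact binomial p = 0.0145). The splits of centre against each end and the comparison of right with left ends between chromosomes were chosen after the counts were seen.

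This tilt to the right was larger on chromosome II than on III, IV, V and X. Of the sites in either end, the right end held 164 of 227 on chromosome II, against 169 of 296 on III, 106 of 262 on IV, 124 of 247 on V and 126 of 208 on X. Chromosome II was higher by 15.2 percentage points than III, by 31.8 than IV, by 22.0 than V and by 11.7 than X. Fisher's exact tests, two-sided and adjusted over the 4 chromosomes, gave p = 0.000470, 5.96e-12, 1.85e-06 and 0.0110 in that order. The difference from X depended on the list: it was 28.7 points in replicate 1 (adjusted Fisher's exact p = 0.000513) and 12.2 points in replicate 2, where it did not pass (adjusted Fisher's exact p = 0.0503). In the combined list the right end was also denser than the left on III (ratio 1.33, interval 1.05 to 1.69, exact binomial p = 0.0170). The same held on X (ratio 1.54, interval 1.15 to 2.05, exact binomial p = 0.00278). Replicates 1 and 2 gave ratios of 1.46 and 1.57 on III, and of 1 and 1.56 on X. For V the combined ratio was 1.01 (interval 0.779 to 1.30). On chromosome IV the combined list had 0.679 times as many sites in the right end as in the left (interval 0.526 to 0.875). Neither replicate list passed there, with ratios of 0.826 in replicate 1 (interval 0.571 to 1.19; exact binomial p = 0.327) and 0.736 in replicate 2 (interval 0.529 to 1.02; exact binomial p = 0.0669). Gene number within the chromosome was not counted, and its part in the tilt was not tested.

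The share of all sites in the central 50% was 61.5% on II, against 57.9% on III, 62.99% on IV, 66.2% on V and 53.9% on X, and none passed Fisher's exact test against II (adjusted p = 0.281, 0.605, 0.167 and 0.0637). In the list of replicate 2 the difference from V was -9.34 points and passed (adjusted Fisher's exact p = 0.0277). In the central part of 3 equal parts the differences from III (8.20 points; adjusted Fisher's exact p = 0.0129) and X (8.49 points; adjusted Fisher's exact p = 0.0130) passed as well.

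**Figure D1:**
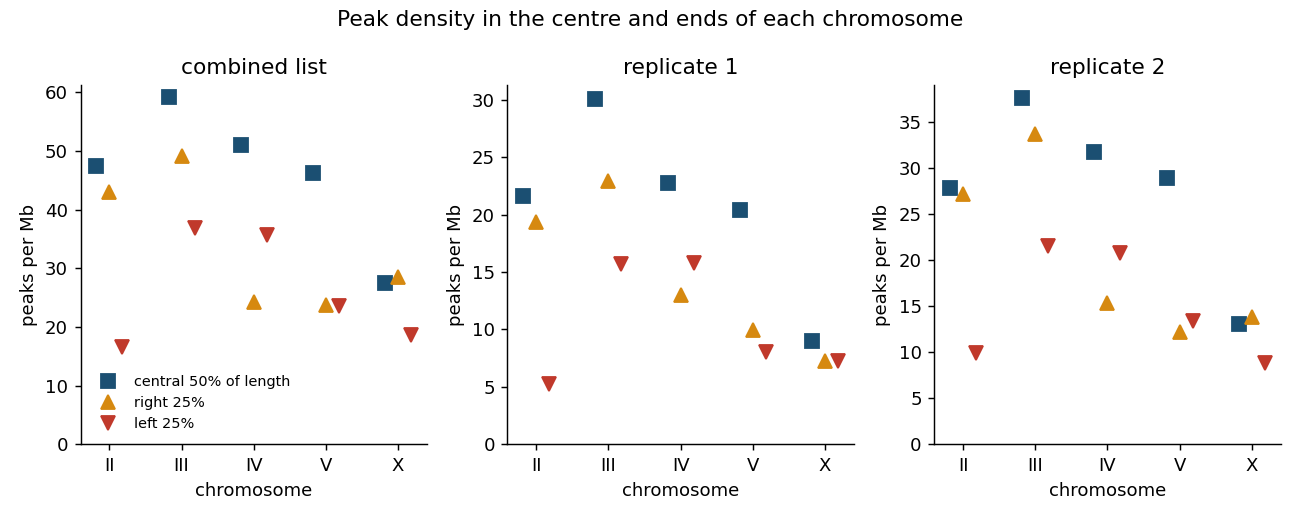
Peaks per Mb (y axis) in the central 50%, right 25% and left 25% of the length of chromosomes II, III, IV, V and X (x axis), in the combined list and in the lists of replicates 1 and 2; each symbol is 1 count over a length, without replicates. On chromosome II the right end lies close to the centre and the left end far below both in all 3 panels, at 16.5 per Mb in the combined list.

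In full windows of 1 Mb, every count left of 5 Mb was lower than every count to the right of it. The first 5 windows held 13, 21, 16, 19 and 27 combined peaks. The sixth, from 5000001 to 6000000, held 64, the most of the 15 full windows, and the 9 full windows after it held between 31 and 58. The median over the 15 full windows was 40 peaks, and the partial last window, from 15000001 to 15266768, held 13. With the windows moved by 500 kb, the densest was that from 7500001 to 8500000 with 58 sites, and the sparsest that from 1500001 to 2500000 with 9, so the place of the maximum depends on where windows begin.

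Replicate lists gave a similar profile. The sixth window was the densest in both, with 33 peaks in replicate 1 and 44 in replicate 2. The sparsest full window was the first in replicate 1, with 5 peaks, a count it shared with the second and the fourth, and in replicate 2 the second and the fourth, with 9 each. Across the 15 full windows the counts of the replicates had a Spearman rho of 0.921, and across 152 windows of 100 kb one of 0.878. These are descriptions, since both lists share the genome and the strain. The variance of the combined window counts was 6.90 times their mean, against 2.88 on III, 4.76 on IV, 7.99 on V and 3.35 on X.

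**Figure D2:**
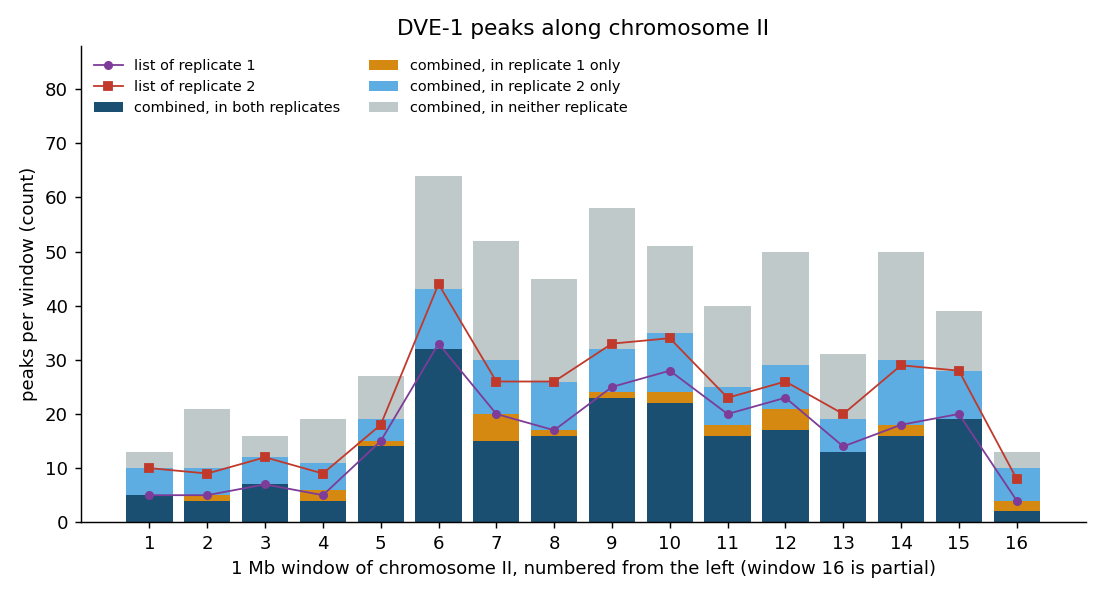
Number of peaks by midpoint (y axis) in each 1 Mb window of chromosome II, numbered from the left (x axis). Bars are the combined list split by the replicates whose peaks overlap each site, lines are the lists of replicates 1 and 2; windows 1 to 5 hold 13 to 27 combined peaks, and window 6 holds 64.

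At the finer scale of 100 kb, the median window held 3 sites, and 12 of 152 full windows held none (7.89%). Of these 12 windows, 10 lay in the left end, where the median was 1 site per window. The centre had a median of 5 and 2 empty windows, and the right end a median of 4 and no empty window. The longest run of empty windows reached from 1900001 to 2200000. At the other extreme, 5 windows held 10 sites or more (3.29%), against 12.4% of windows on III, 4.02% on IV, 4.31% on V and 1.14% on X.

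The densest 100 kb of chromosome II lay from 5300001 to 5400000 and held 16 sites, of which 9 overlapped peaks of both replicates. It also had 8 peaks in the list of replicate 1 and 11 in that of replicate 2. Next came the window from 8000001 to 8100000 with 14 sites, 4 of them in both replicates. Windows starting at 5500001, 6800001 and 9600001 held 11 each. All 5 were in the centre. The highest count of a full 100 kb window was 15 on III, 14 on IV, 13 on V and 11 on X.

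Chromosome-wide, the sites of II were sparser than those of III and denser than those of X. Chromosome II had 38.6 sites per Mb, against 51.1 on III, a ratio of 0.756 (exact interval 0.676 to 0.844; exact binomial p adjusted over 4 chromosomes = 1.03e-06). Against X, which had 25.6 per Mb, the ratio was 1.51 (interval 1.33 to 1.71; adjusted exact binomial p = 1.85e-10). Neither IV (ratio 0.952, interval 0.852 to 1.06; adjusted exact binomial p = 0.388) nor V (ratio 1.10, interval 0.990 to 1.23; adjusted exact binomial p = 0.0992) passed the test. Of sites in both replicates alone, the ratio to V was 1.21 and passed (adjusted exact binomial p = 0.0497). The replicate lists gave ratios to III of 0.687 and 0.713 and to X of 2.09 and 1.91, for replicates 1 and 2 in turn. Counted per protein-coding gene of a later assembly, II had 17.1 sites per 100 genes, against 26.6 on III, 21.6 on IV, 14.6 on V and 16.5 on X. By that count the ratio to X was 1.03 and no longer passed (adjusted exact binomial p = 0.596), while the ratios to IV (0.792; adjusted exact binomial p = 6.08e-05) and V (1.17; adjusted exact binomial p = 0.00677) did.

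The strongest site on chromosome II was also its widest and the widest of the whole combined list. It ran from 10541811 to 10557672, 15862 bp at 69.1% of the length, with q = 2.88e-256. Replicate 1 divided it into 4 peaks, the best of them from 10541811 to 10547326 (q = 1.77e-42), and the other 3 had q-values of 3.20e-18, 5.93e-20 and 5.10e-22. Replicate 2 had 2 peaks there, from 10541817 to 10547268 (q = 1.10e-52) and from 10547613 to 10557505 (q = 7.01e-89). Both lists thus placed a break between 10547268 and 10547664. After a gap of 482 bp came another site in both replicates, from 10558155 to 10560589 (q = 1.16e-33).

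A narrow and strong site stood 2651 bp to the right of that pair, from 10563241 to 10563680. It was 440 bp wide, with q = 7.88e-54 in the combined list, 2.51e-32 in replicate 1 and 2.64e-35 in replicate 2. It ranked 14 among the 589 sites by q-value and 376 by width, so a strong call did not need a wide interval. This site was chosen with its values in view.

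The site ranked second by q-value lay from 8741252 to 8748184 (6933 bp, q = 6.99e-174). It was the strongest peak of chromosome II in replicate 1 (from 8743105 to 8748132, q = 2.77e-70) and the second strongest in replicate 2 (from 8741265 to 8748222, q = 1.69e-85). Together with 2 narrower sites to its left, each in both replicates, it formed a block of 3 sites over 10035 bp. In the right end stood the site of rank 3, from 14597708 to 14606525 (8818 bp, q = 1.11e-137), which replicate 1 divided into 2 peaks (best q = 2.29e-44) and replicate 2 called as 1 (q = 7.50e-68).

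**Figure D3:**
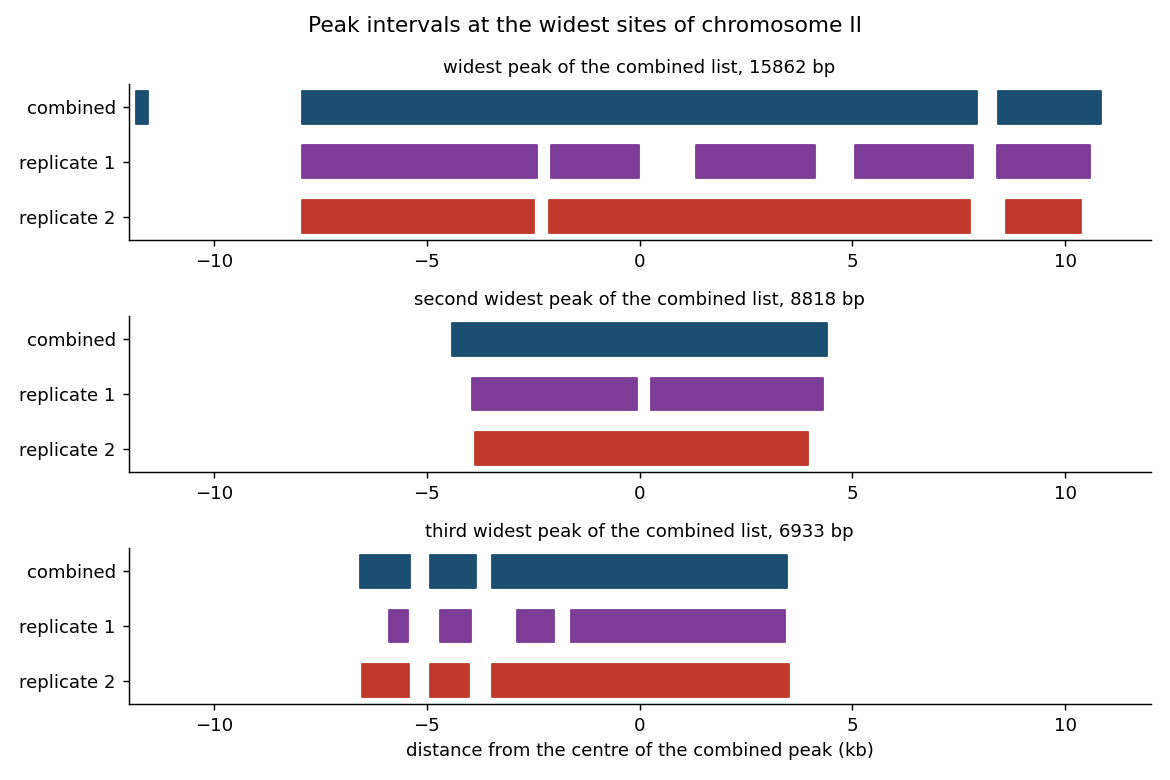
Peak intervals in the combined list and in replicates 1 and 2 (rows) around the 3 widest combined peaks of chromosome II, drawn to scale by distance from the centre of the combined peak in kb (x axis). Replicate 1 divides the 15862 bp peak into 4 intervals and replicate 2 into 2, and the other 2 peaks, of 8818 and 6933 bp, are each 2 intervals in replicate 1 and 1 in replicate 2.

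The other members of the strongest 10 were present in both replicates as well. A site from 6344549 to 6349081 was 4533 bp wide (q = 1.73e-89) and had 1 peak in replicate 1 (q = 6.88e-36) and 1 in replicate 2 (q = 6.23e-52). The site from 9932938 to 9937997 was 5060 bp wide (q = 9.95e-79) and was divided into 2 peaks by each replicate, the best at q = 6.45e-21 and 1.64e-26. Farther right, the site from 11633962 to 11637920 (3959 bp, q = 9.19e-72) was 3 peaks in replicate 1, with a best q of 1.95e-16, and 1 in replicate 2, with q = 9.19e-41. Over the whole chromosome, 11 combined sites held several peaks of replicate 1, of 248 with any, and 11 held several of replicate 2, of 346 with any.

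Ranks 7 to 10 were close to each other in q-value. The site from 6887317 to 6892389 was 5073 bp wide (q = 7.09e-71), the one from 10387885 to 10390847 was 2963 bp (q = 8.93e-71) and that from 9282564 to 9286012 was 3449 bp (q = 1.53e-69). The tenth, from 5543310 to 5544528, was only 1219 bp wide (q = 4.15e-69), and its replicate peaks had q-values of 6.32e-34 and 3.43e-40. Of the strongest 10 sites, 8 lay in the centre, 2 in the right end and 0 in the left end. Beside them, these parts held 362, 164 and 63 of all 589 sites, and the 2 splits were not tested against each other. Among the strongest sites of the whole list, chromosome II held 3 of the first 10, 11 of the first 50 and 16 of the first 100, and it held 15.9% of all sites.

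The strongest site of every full 1 Mb window overlapped peaks of both replicates. Left of 5 Mb these leading sites had q-values between 1.62e-19 and 2.12e-32, the lowest at the site from 3244717 to 3246252. From the sixth window to the fifteenth they ran between 7.70e-32, for the site from 7776070 to 7778683, and 2.88e-256. The windows left of 5 Mb held fewer sites, so each lowest q-value there was taken from fewer, and this contrast was not tested. Sites with a q-value under 1e-20 numbered 69 in all (11.7%). The centre held 41 of them (11.3% of its sites), the right end 24 (14.6%) and the left end 4 (6.35%), and these shares were not tested against each other. On III, IV, V and X the shares under 1e-20 were 12.4%, 12.1%, 9.32% and 9.31%.

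**Figure D4:**
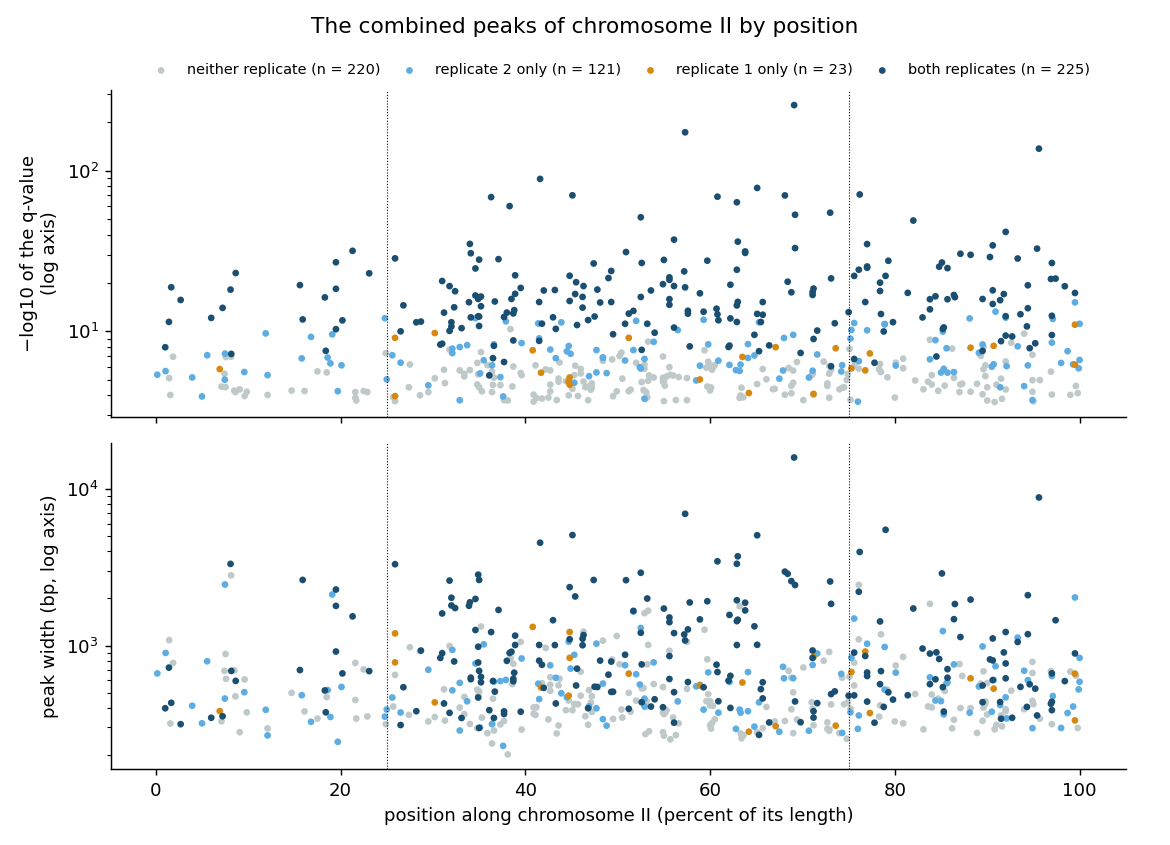
Each of the 589 combined peaks of chromosome II by position in percent of the length (x axis), with −log10 of its q-value (top, log axis) and its width in bp (bottom, log axis); colours give the replicates with an overlapping peak and dotted lines the limits of the left 25% and right 25%. The 220 sites in neither replicate lie toward the low end of the q-value scale, and few strong sites lie left of the first dotted line.

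Most sites were narrow, and the few widest made up a larger share of the bound length than of the sites. Widths ran from 202 to 15862 bp, with a median of 546 bp and quartiles of 387 and 857 bp. The 213 sites over 500 and up to 1000 bp and the 211 over 300 and up to 500 bp made up most of the list. The 7 sites wider than 4000 bp were 1.19% of the sites and 10.6% of the total peak length of 486553 bp, and the widest alone held 3.26%. All 7 were in both replicates. In all, peaks covered 3.19% of the chromosome, against 3.75% on III, 3.09% on IV, 2.83% on V and 2.40% on X.

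Of the 10 widest sites, 8 were also among the 10 strongest. The exceptions were the sites from 12051524 to 12057005, of 5482 bp, and from 9618599 to 9622311, of 3713 bp. The wider of these had q = 7.64e-23 and ranked 58 by strength. Replicate 1 covered it with a single peak of 909 bp (q = 7.86e-05), and replicate 2 with 2 peaks of 455 and 2155 bp, the better of which had q = 9.26e-08. Wide and well ranked were therefore linked but not the same, with a Spearman rho of -0.542 between width and q-value over the 589 sites. The q-value itself depends on width, so this is a description.

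Sites wider than 1000 bp made up 118 of 589 on chromosome II (20.03%), beside 19.8% of the whole list. They were less frequent than on X, where 133 of 451 were that wide (29.5%), a difference of -9.46 points (Fisher's exact p adjusted over 4 chromosomes = 0.00179). At a limit of 2000 bp the difference from X was -1.26 points and no longer passed (adjusted Fisher's exact p = 0.823), and in the list of replicate 1 it was -7.22 points (adjusted p = 0.165, Fisher's exact). The shares on III (17.6%), IV (17.2%) and V (19.7%) did not pass the test against II (adjusted Fisher's exact p = 0.378, 0.378 and 0.890). In the list of replicate 1 alone, though, II had 61 of 259 peaks that wide, against 44 of 340 on III, a difference of 10.6 points (adjusted Fisher's exact p = 0.00427).

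Neighbouring sites lay at every distance, from under 1 kb to over 100 kb. The 588 gaps had a median of 10194.5 bp and quartiles of 2171 and 33672 bp. Of these, 94 were under 1000 bp (15.99%) and 27 were 100 kb or more (4.59%). On III, IV, V and X the shares under 1000 bp were 17.2%, 15.1%, 14.4% and 11.8%, and none of these passed the test against II, with adjusted Fisher's exact p-values of 0.700, 0.700, 0.700 and 0.237. The median gap was 7940 bp on III, 9349 bp on IV, 12058 bp on V and 19880.5 bp on X. These shares and medians depend on the density of sites on each chromosome.

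The 3 longest gaps all lay left of 4 Mb. The first, from 1852047 to 2243873, was 391827 bp long and longer than any gap of the combined list on III, IV, V or X, where the longest were 176639, 345271, 311047 and 281780 bp. It held no peak of replicate 1, and of replicate 2 only the last base of a peak that belongs to the site at its left edge, from 1851769 to 1852047. The second, from 1504044 to 1819946 (315903 bp), and the third, from 3519536 to 3786557 (267022 bp), held no peak of either replicate. Of the 27 gaps of 100 kb or more, 15 began in the left end, which held 63 sites (16.5 per Mb). This count is another view of that low density and was not tested. The longest that began outside the left end, looked up after the gaps were seen, reached from 6050346 to 6235311 (184966 bp) and held no replicate peak. Every replicate 1 peak and 353 of 355 replicate 2 peaks of the chromosome overlapped a combined site. Gaps between combined sites were thus nearly bound to hold few or none, so their absence is no separate support.

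Closely spaced sites formed 74 runs in which each neighbour was less than 1000 bp away, and these held 168 of the 589 sites (28.5%). The share in runs was 30.4% on III, 26.6% on IV, 26.6% on V and 21.3% on X, without a test. This share also depends on the density of sites on each chromosome. There were 57 pairs, 14 runs of 3 and 3 runs of 4, and no longer run, against a longest run of 5 on III, 7 on IV, 3 on V and 4 on X. The run of 4 from 5329805 to 5338831 spanned 9027 bp, and all 4 sites were in both replicates, with q-values from 1.23e-28 to 4.47e-13. That from 8483198 to 8488057 spanned 4860 bp, with 3 of 4 sites in both replicates and a best q of 1.24e-21. The remaining one, from 3952249 to 3959478, had a single site in both replicates, from 3956173 to 3959478 (3306 bp, q = 3.69e-29), and weaker neighbours, the weakest at q = 0.000210.

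Sites in runs had a larger median width and a lower median q-value than single sites. The median width was 747.5 bp and the median q-value 9.92e-11, against 481 bp and 3.06e-07 for the 421 single sites. Of the sites in runs 84 of 168 overlapped peaks of both replicates (50.0%), against 141 of 421 single sites (33.5%). These values are a description without a test, since members of a run share their place, and a caller can divide a wide region into neighbours.

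The combined sites of chromosome II were then followed into the replicate lists. Of the 589, 225 overlapped a peak of both replicates by at least 1 bp (38.2%, exact 95% interval 34.3 to 42.3), beside 35.0% of the whole combined list. A further 121 were matched in replicate 2 and not in replicate 1 (20.5%), and 23 in replicate 1 and not in replicate 2 (3.90%). No replicate peak was found at 220 (37.4%, interval 33.4 to 41.4), beside 40.1% of the whole list. Support went with strength: 145 of the strongest 147 sites were in both replicates (98.6%), as were 73 of the second 147 (49.7%), 7 of the next 148 (4.73%) and 0 of the weakest 147, which allows a share of up to 2.48% by the exact interval. All of the strongest 100 sites were in both. How the combined list was made is not given. If it rests on the same ChIP libraries, its q-values and the replicate calls are not independent. Strong combined sites would then tend to be called in each replicate as well. The fall in support with rank is therefore a description, and was not tested.

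Support differed from that on X and not detectably from that on III, IV and V. The share in both replicates was 12.5 points higher on II than on X, from 225 of 589 against 116 of 451 (adjusted Fisher's exact p = 0.000103). For the share in neither the difference was -11.7 points, lower on II (adjusted Fisher's exact p = 0.000744). Within the stronger 50% of the combined list the first difference was 15.2 points and passed (adjusted Fisher's exact p = 0.00229). In the weaker 50% of the combined list the second difference was -9.06 points and did not pass (adjusted Fisher's exact p = 0.0710). The median q-value of the combined sites was 8.00e-08 on II and 5.43e-07 on X, and the part of this difference in strength was not tested. Against III, IV and V the share in both differed by -2.62, 0.771 and 3.41 points, with adjusted Fisher's exact p-values of 0.481, 0.818 and 0.411.

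**Figure D5:**
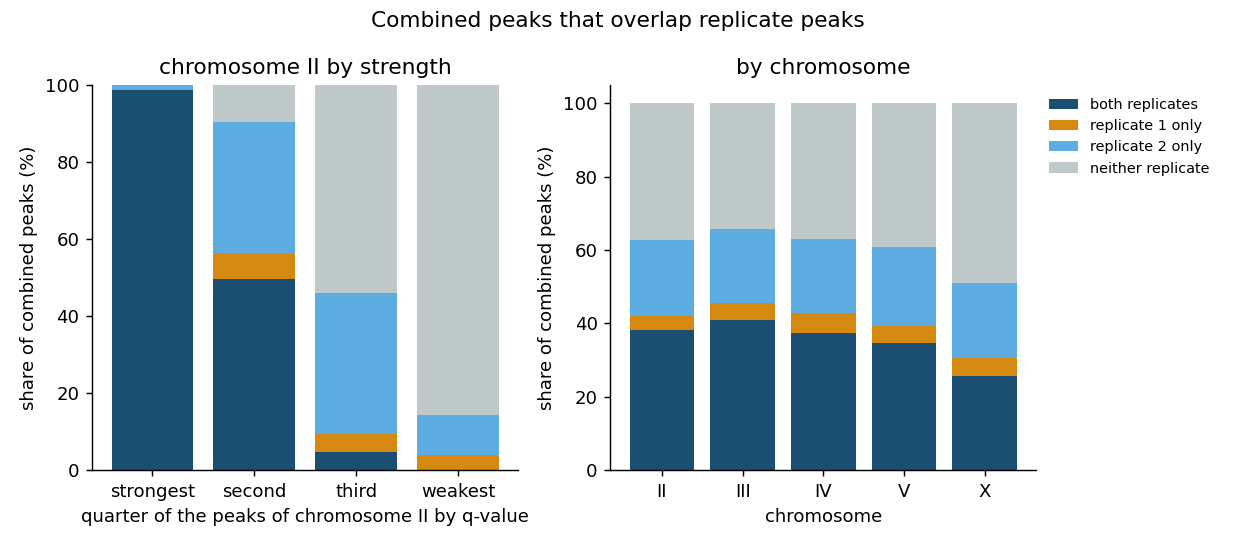
Share of combined peaks in percent (y axis) that overlap a peak of both replicates, of 1 of them or of neither, for 4 parts of about equal size of the peaks of chromosome II, ranked by q-value (left) and for chromosomes II, III, IV, V and X (right). The share in both replicates is 98.6% in the strongest part of chromosome II and 0 in the weakest, and is higher on II (38.2%) than on X (25.7%).

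Within the chromosome, the intervals of support overlapped between regions. The share in both replicates was 39.5% in the centre (exact interval 34.4 to 44.7), 38.4% in the right end (interval 30.9 to 46.3) and 30.2% in the left end (interval 19.2 to 43.0). By 1 Mb window it ran from 19.05% in the second window to 51.9% in the fifth among the full windows, with 21 and 27 sites there. Sites in the left end had a median width of 499 bp, against 547.5 bp in the centre and 566.5 bp in the right end.

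A few sites were strong for their class of support. The strongest held by replicate 2 alone, from 15194858 to 15196885 (2028 bp, q = 7.36e-16), and the strongest held by replicate 1 alone, from 15193731 to 15194392 (662 bp, q = 1.03e-11), were neighbours 465 bp apart at 99.5% of the length. Their own replicate peaks had q = 9.23e-09 in replicate 2 and q = 9.87e-07 in replicate 1. Another site beside them, from 15197324 to 15198214 (q = 4.81e-18), was in both. The 2 replicates thus split their calls within 1 block of 4484 bp.

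The next sites held by replicate 2 alone ran from 13872024 to 13872761 (q = 5.63e-14) and from 14050325 to 14050791 (q = 6.97e-13). Those held by replicate 1 alone ran from 4604081 to 4604514 (q = 1.79e-10) and from 7808713 to 7809374 (q = 7.83e-10). Sites in neither replicate began at rank 207 of 589, with the site from 5865393 to 5866222 (830 bp, q = 4.94e-11). They were followed by the sites from 14349426 to 14349817 (q = 2.16e-10) and from 12794722 to 12796568 (1847 bp, q = 1.39e-09). A site absent from a list was not called there, and at unknown depth this does not show that DVE-1 was absent.

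Seen from the replicate lists, chromosome II had 259 peaks in replicate 1 and 355 in replicate 2. Of the replicate 1 peaks, 237 overlapped a peak of replicate 2 (91.5%, exact interval 87.4 to 94.6), and of the replicate 2 peaks, 229 overlapped one of replicate 1 (64.5%, interval 59.3 to 69.5). The replicate 1 shares on III, IV, V and X were 89.4%, 88%, 89.9% and 83.2%. Those of replicate 2 were 66.8%, 64.4%, 61.3% and 55.3%, and these were not tested against II. Every peak of replicate 1 and 353 of 355 of replicate 2 overlapped a combined site. The strongest replicate 2 peak with no partner in replicate 1 ranked 85 on the chromosome (from 6701463 to 6701788, q = 3.67e-11). Among the top 25 peaks of each list, 22 of replicate 1 lay over a top 25 peak of replicate 2, and 19 of replicate 2 over one of replicate 1. Among the top 10 it was 7 in either direction.

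Shared peaks also had close edges. In 214 1-to-1 pairs of replicate peaks, the median distance was 42 bp between starts and 46 bp between ends. It was at most 100 bp for 74.3% of starts and 74.8% of ends. The Spearman rho over these pairs was 0.722 for the q-value and 0.856 for the width, as a description over peaks. On III, IV, V and X the rho of widths was 0.808, 0.791, 0.821 and 0.807.

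The outermost sites were in 1 replicate each. The first combined site, from 24455 to 25118 (664 bp, q = 4.30e-06), and the last, from 15265935 to 15266768 (834 bp, q = 2.34e-07), were each supported by replicate 2 and not by replicate 1. The end of the last site set the length used for the densities.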

How the data were processed

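The authors called peaks in WormBase WS180 coordinates, per the file headers; the source column of each deposited list names PeakSeq. Each peak of the deposited lists carries a q-value. How the combined list was made, the aligner, PeakSeq's version and thresholds, and which input was used are not given in the sources here. Worms were fixed with 2% formaldehyde, per the labels' protocols.

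All intervals were read unfiltered with Python 3.11.15, numpy 2.4.6 and scipy 1.17.1, and plotted with matplotlib 3.10.9; bedtools 2.31.1 gave the same overlap count in 30 of 30 checks. Chromosome length was the highest peak end in any list. Density was tested by an exact binomial test, shares by Fisher's exact test, with Benjamini-Hochberg adjustment over 4 chromosomes. Intervals are exact at 95%. Density, overlap and share steps were tested on simulated data with independent peaks, so clustering of neighbouring peaks was not covered. Sites were named by rule: the strongest, widest, most isolated and most clustered sites and windows, the leading site of each window and of each class of support, and the outermost. Members, rules and tests were chosen with earlier results of these data known. The gene table, in assembly WBcel235, was used for nothing but the number of protein-coding genes on each chromosome. The sequence of the sites was not analysed here.
Centre against each end, and the right share between chromosomes, were added after the data were seen.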

Additional observations from a re-analysis of the deposited data

How the results depend on the processing

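No paired analysis was possible because replicate numbers are shared between ChIP and input alone, and the input libraries have no list here. Of 135 alternatives over 34 values, 104 kept the direction and side of the threshold or moved within the interval. The remaining ones follow, each as chromosome II against the chromosome named, and their causes were not tested. Density ratios were 1.21 against V for sites in both replicates (passed), and 0.792 (IV), 1.17 (V) and 1.03 (X) per gene, where IV and V passed and X did not. Covered length gave 0.849 (III), 1.03 (IV, direction turned) and 1.33 (X). The share in the central 3rd differed by 8.20 (III, passed), 0.417 (IV, turned) and 8.49 points (X, passed), and in single replicate lists by -3.76 to 2.48 (IV) and -9.34 to -5.67 points (V, passed in replicate 2). Support in both turned to -1.05 points (IV) with midpoints within 200 bp. Support in neither turned against IV to -0.0707 points with 50% reciprocal overlap, -0.266 with midpoints and -0.669 in the weaker 50% of the list, where it was 0.358 against V (turned) and -9.06 against X (not passed). Sites over 2000 bp differed by -0.430 (V, turned) and -1.26 points (X, not passed), and peaks over 1000 bp in single replicate lists by 2.44 to 10.6 (III, passed in replicate 1) and -9.41 to -7.22 points (X, not passed in replicate 1). Close neighbours, which passed no test, ran in single replicate lists from 0.0479 to 0.123 (III), -1.26 to 1.44 (IV) and -1.77 to 1.99 points (V), and against IV were -1.03 at 500 bp and -1.79 at 2000 bp. Of the alternatives chosen after seeing the data, centre to right end was 1.25 by 3 equal parts (passed) and 0.989 in the stronger 50% of the list, and the right share against X was 12.2 to 28.7 points in single replicate lists (passed in replicate 1, not in replicate 2). Depth is unknown, so an uncalled site is not shown to be unbound.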
